A study of Mus musculus with 4 samples.

Results

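The cells described here are the ascites macrophages whose transcripts of Cx3cr1, Fcrls and Ms4a7 outnumbered those of 3 other gene trios. They were chosen from the measured values by a fixed rule. A cell had to hold at least 30 transcripts of C1qa, C1qb and C1qc together per 10000 unique molecular identifiers (UMIs, counted transcripts) and at most 1 UMI of Cd79a and Cd3e. Among these C1q-positive cells, UMIs were summed for Cx3cr1, Fcrls and Ms4a7, for Lyve1, Marco and Cd163, for Gpnmb, Ltc4s and Raph1, and for Prg4, Alox15 and Selp. The 392 cells in which the first sum was strictly the highest are called the Cx3cr1 gate below. They are 392 of 6419 ascites cells and of 13160 cells kept in all. The other trios led in 316, 724 and 136 cells, and in 180 cells no sum was strictly highest.

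All mice were of the B6 strain and carried the BeCon tumour, which the series title places in ovarian cancer. The treated group, 4 mice in ascites, received YKL-05-099, a compound that blocks the salt-inducible kinases SIK1, SIK2 and SIK3. The vehicle group, also 4 mice, received the carrier alone. Living leukocytes, sorted as CD45+ and MHC class I+, were taken from ascites, labelled with a hashtag antibody for each mouse and run together as a single droplet library, so all 8 mice share its preparation. Dose, schedule, sex and age of the mice are not given in the sources used here. Since the tumour and the sort are common to both groups, no healthy peritoneal cavity enters any comparison.

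Macrophages of the peritoneal fluid have more than 1 origin. Resident large peritoneal macrophages depend on the transcription factor GATA6, whereas small peritoneal macrophages are replenished from blood monocytes that express the chemokine receptor CCR2 and carry more MHC class II. Cx3cr1 encodes the receptor of the chemokine CX3CL1, Fcrls an Fc receptor-like scavenger protein best known from microglia, and Ms4a7 a tetraspan membrane protein of macrophages. Salt-inducible kinases phosphorylate class IIa histone deacetylases and the CRTC proteins, coactivators of CREB, which keeps both in the cytoplasm. In macrophages grown in culture, blocking them is known to raise IL-10 production.

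Several facts of the library stand beside every result. Of the 392 cells, 213 were called doublets by HTODemux, a caller that reads the hashtags alone, although their top hashtag held at least 80% of at least 20 hashtag UMIs as the rule asked. Per mouse the gate held 30, 36, 20 and 15 cells in the treated group, against 51, 89, 91 and 60 cells in the vehicle group. Treated mouse 4, with 15 cells, fell under the minimum of 20 cells and entered no fit unless this is said. Median UMIs per cell were 10637, 15185 and 10379 in treated mice 1 to 3, against 15327, 15884, 15276 and 17103 in vehicle mice 1 to 4. That difference gave p = 0.0286 in an exact two-sided permutation test of 3 mice against 4, which is the smallest p this design allows. The summed counts per mouse ran from 265389 to 555460 UMIs in the treated mice of the fit and from 883466 to 1537955 UMIs in the vehicle mice.

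Macrophage markers were present. All 8 genes of the macrophage list were measured well enough to be tested, among them Csf1r, the receptor of the macrophage growth factor CSF1, with 414 ± 67.5 CPM (UMIs of the gene per 1000000 UMIs of that mouse's gate cells) in treated mice and 572 ± 66.1 CPM in vehicle mice (SD, n = 3 and 4). Genes of large resident peritoneal macrophages were nearly absent, with 11.3 to 29.2 CPM summed over 7 genes in the treated mice and 21.4 to 25.1 CPM in the vehicle mice. Prg4, Alox15 and Selp are among the 7, and the rule itself selects against them, so this sum is low in part by construction. Gata6 was at 0 CPM in every treated mouse and reached at most 0.650 CPM in a vehicle mouse. The fibroblast, mesothelium, tumour epithelium and NK cell lists summed to at most 2.55 CPM in any mouse. Krt8, Krt19, Epcam, Msln, Wt1, Pdgfra and Ncr1 had no UMI in any of the 8. Non-classical monocyte genes summed to 103 to 232 CPM in treated mice and 145 to 225 CPM in vehicle mice, and neutrophil genes to 18.8 to 40.7 and 28.3 to 90.6 CPM. Haemoglobin transcripts summed to 12190 and 28704 CPM in treated mice 3 and 4 and to between 12.7 and 255 CPM in the other 6 mice. A single cell held 99.8% of those UMIs in treated mouse 3. They made up 1.22% of the UMIs of that mouse's gate, and their part in the results was not tested.

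Seen against the other 3 gates of the same vehicle mice, Cd72, Clec4b1, Hpgd and Ighm were the leading genes of these cells. A gate of a mouse entered this comparison with at least 10 cells. The rule itself uses expression in these cells, so the levels in this and the next 2 paragraphs are a description without a test. Of 2680 genes that averaged at least 50 CPM in the gate, 618 genes, or 23.1%, were higher there than in each other gate in all 4 vehicle mice. Cd72, an inhibitory C-type lectin best known from B cells, led with 104, 105, 72.4 and 189 CPM in the vehicle mice of the gate. It averaged 14.2 CPM in the Lyve1 gate, 30.9 CPM in the Gpnmb gate and 6.23 CPM in the Prg4 gate of the same mice. Every vehicle mouse of the Cx3cr1 gate thus lay above those means. Clec4b1, another C-type lectin, averaged 71.7 ± 17.0 CPM (SD, n = 4), against 10.4, 18.0 and 2.83 CPM in the Lyve1, Gpnmb and Prg4 gates. Clec4a2, an inhibitory lectin of dendritic cells and monocytes, averaged 234 ± 31.3 CPM, against 90.03, 113 and 29.95 CPM.

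**Figure D1:**
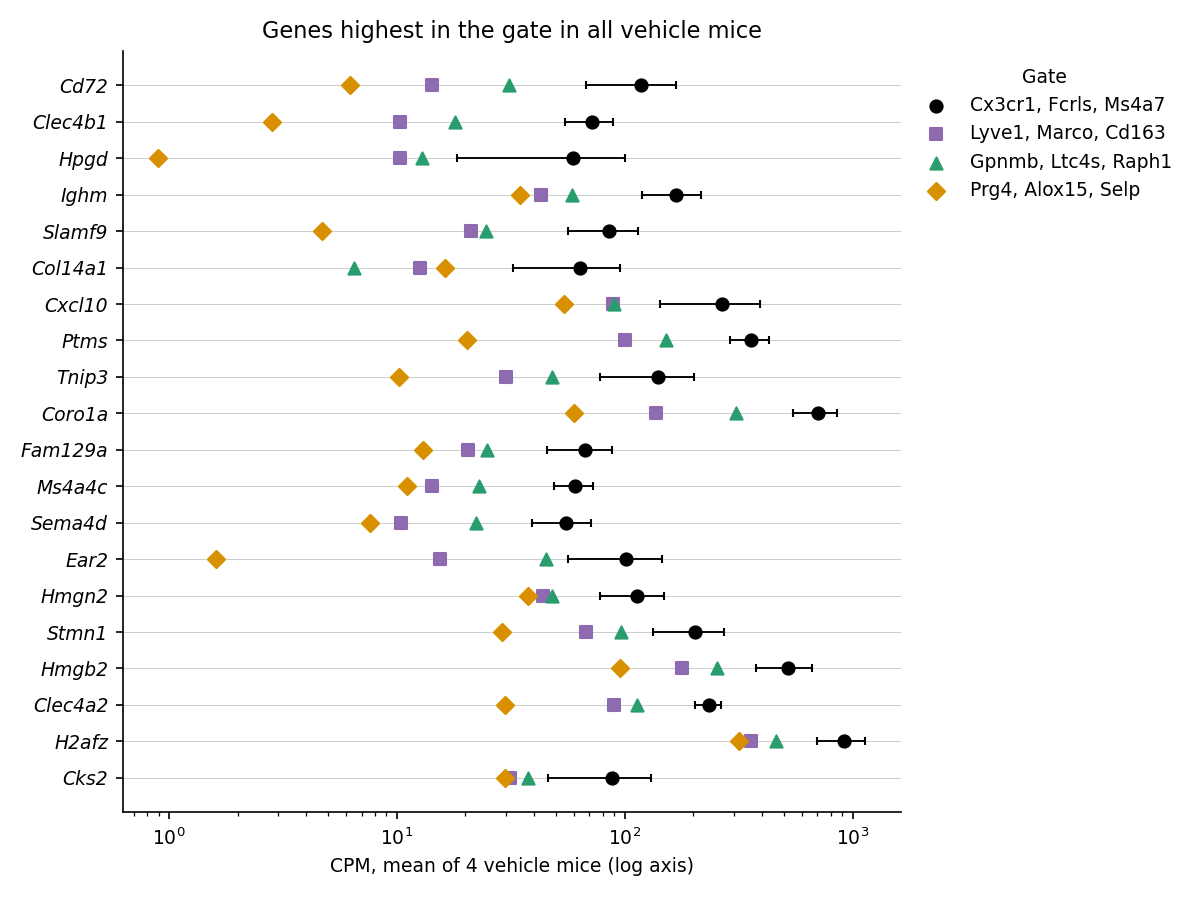
Mean CPM over 4 vehicle mice on a log axis for the 20 genes that led the Cx3cr1 gate by the mean log2 ratio to the highest other gate. Black circles with SD bars stand for the Cx3cr1 gate and lie right of the coloured symbols of the other 3 gates for all 20 genes, from 55.1 CPM for Sema4d to 916 CPM for H2afz.

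Ighm, the immunoglobulin heavy chain of B cells, stood at 147, 123, 165 and 236 CPM in the vehicle mice of the gate, against means of 42.9, 58.5 and 34.6 CPM in the Lyve1, Gpnmb and Prg4 gates. The gate of treated mice held 111 ± 25.6 CPM of it (SD, n = 3). Summed over the 6 genes of the B cell list, which include Ighm, the gate held 68.1 to 165 CPM in treated mice and 148 to 261 CPM in vehicle mice, and the part of B cell RNA or of doublets in these levels was not tested. Coro1a, an actin regulator of leukocytes, averaged 702 ± 154 CPM in the gate of vehicle mice, against 137, 307 and 59.9 CPM in the Lyve1, Gpnmb and Prg4 gates. Slamf9, a receptor of the SLAM family, averaged 85.3 ± 29.1 CPM, against 21.2, 24.5 and 4.67 CPM. The chemokine Cxcl10, an interferon target, ranged from 108 to 414 CPM between the 4 vehicle mice, a wide spread around its mean of 267 CPM. Hpgd, the dehydrogenase that inactivates prostaglandins, averaged 59.3 ± 41.0 CPM, against 10.4, 12.8 and 0.896 CPM in the Lyve1, Gpnmb and Prg4 gates. Hmgb2, H2afz and Hmgn2, which bind or form chromatin, Stmn1, a regulator of microtubules, Cks2, a partner of cyclin-dependent kinases, and Col14a1, Ptms, Tnip3, Fam129a and Sema4d were among the 20 as well. In treated mice 1 to 3 the Prg4 gate held 0 cells and the Lyve1 gate only 15, 17 and 13, so the gate could be set against the Lyve1 and Gpnmb gates alone. There 15 of the 20 genes were higher than in both in all 3 mice, beside 14.6% of the 2680 genes, and this share is not comparable with that of the vehicle mice. Ms4a4c was among the 5 that were not, with 42.1 ± 7.60 CPM in the gate of treated mice and 43.7 CPM in their Gpnmb gate. Ear2, an eosinophil-associated ribonuclease, and the chemokine Ccl12, both proposed as marks of these cells, were highest in the gate in all 4 vehicle mice, at 101 ± 44.4 and 180 ± 105 CPM. Ear2 belongs to a family of near-identical copies, so its counts are uncertain.

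Gene lists gave the following counts. Of 3126 genes with at least 50 CPM in any gate, 19.8% were highest and 11.4% lowest in the Cx3cr1 gate in all 4 vehicle mice. Of 13 measured genes of apolipoproteins and lipid handling, 0 were highest and 7 were lowest, among them Apoe at 11486 ± 2969 CPM, against 23387, 18169 and 34687 CPM in the Lyve1, Gpnmb and Prg4 gates. Of 8 complement genes, 5 were lowest, among them Itgam, the integrin chain CD11b, at 385 ± 76.3 CPM, against 818, 593 and 1478 CPM. Arg1, the arginase of alternatively activated macrophages, averaged 266 ± 177 CPM, against 3307, 2242 and 4538 CPM. On the other side, Mki67, Top2a, Pcna and Stmn1 were highest among 5 measured cell cycle genes. Ccr2 averaged 606 ± 151 CPM, against 93.3, 347 and 37.9 CPM. Among 6 MHC class II genes 2 were highest in every vehicle mouse, H2-DMa and H2-DMb1, which load peptides. The antigen-presenting chain H2-Ab1 averaged 2740 ± 451 CPM, against 707, 1502 and 313 CPM, without leading in every mouse.

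The cells were not uniform within the gate. MHC class II transcripts (H2-Aa, H2-Ab1, H2-Eb1 and Cd74 together) had a median of 133 per 10000 UMIs over 101 treated cells and of 126 over 291 vehicle cells. These pool the cells of all mice of a group. Per mouse the medians ran from 55.5 to 205 in treated and from 50.2 to 173 in vehicle mice. The lowest 10% of cells lay under 8.73 and 7.53 per 10000 UMIs in treated and vehicle cells, and the highest 10% above 334 and 393. Cell cycle transcripts were concentrated in few cells, with medians of 2.89 and 2.52 per 10000 UMIs in treated and vehicle cells and maxima of 40.8 and 48.7. In contrast Lyz2, the lysozyme gene of myeloid cells, kept between 21.2 and 115 per 10000 UMIs in 8 of 10 treated cells and between 16.4 and 106 in 8 of 10 vehicle cells. The gate is narrow at its edge. Its sum had a median of 5 UMIs in treated cells and 8 UMIs in vehicle cells, and it led by only 1 UMI in 22 of 101 treated cells and 41 of 291 vehicle cells. Just outside, it was tied for the highest sum in 16 treated and 39 vehicle cells.

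Treated ascites held a smaller share of these cells. They made up 4.46%, 5.14%, 3.01% and 1.85% of the kept cells of treated mice 1 to 4, against 6.07%, 10.5%, 11.5% and 5.48% in vehicle mice 1 to 4. The groups did not overlap, and the means were 3.62 ± 1.47% and 8.40 ± 3.06% (SD, n = 4 each). Of the C1q-positive cells they made up 15.995 ± 2.90% in treated mice and 25.8 ± 3.49% in vehicle mice. The Gpnmb gate held 60.3 ± 7.87% of C1q-positive cells in treated mice and 29.3 ± 4.65% in vehicle mice, and the Prg4 gate 0.824 ± 1.65% and 12.2 ± 9.40%. These shares are given without a test. Genes that define the gates themselves differed between treated and vehicle mice over all C1q-positive cells, so a share moves with their levels. Raph1 was higher by 1.31 ± 0.14 on the log2 scale (SE, edgeR adjusted p = 9.5e-05). Ltc4s was higher by 0.52 ± 0.11 (edgeR adjusted p = 0.00755), and Prg4 and Alox15 were lower. Cx3cr1 differed by -1.40 ± 0.37 over the same cells, with an edgeR adjusted p of 0.0501. Where each cell was first thinned to 3000 UMIs, the shares were 2.58% and 6.09% of kept cells in treated and vehicle mice, with 90 of 635 treated and 76 of 1113 vehicle C1q-positive cells too shallow to be gated.

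**Figure D2:**
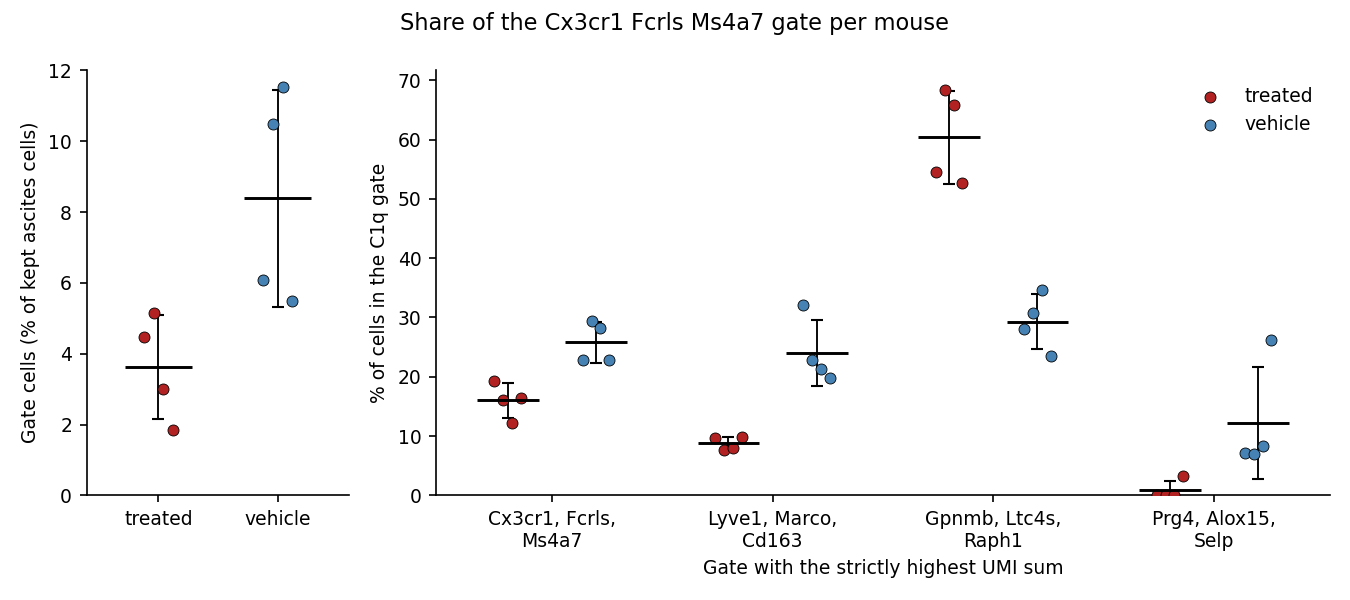
Left, Cx3cr1 gate cells as a percentage of kept ascites cells in each mouse, with treated mice (red) at 1.85% to 5.14% and vehicle mice (blue) at 5.48% to 11.5%. Right, the percentage of C1q-positive cells in each of the 4 gates, where bars mark the mean and SD of 4 mice and the Gpnmb gate is the one that was larger in treated mice.

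The comparison of treated with vehicle mice covers the transcripts of the cells that the rule admitted in each group. Those cells may differ in kind, since the gating genes themselves differed. Cx3cr1 was detected in 54.5% of treated and 73.5% of vehicle gate cells, and Ms4a7 in 88.1% and 75.3%. The part of this selection in the results below was not tested. Counts were summed per mouse and tested with edgeR's quasi-likelihood test. Of 7242 genes tested, 271 passed an adjusted p of 0.05, 142 higher and 129 lower in treated mice, which is 3.74% of the genes, 1.96% higher and 1.78% lower. The median log2 fold change over all tested genes was 0.01. The number of calls changed when single mice were left out, which also left fewer mice in the fit. It was 167 without treated mouse 2, 151 without treated mouse 3, 169 without vehicle mouse 1 and 178 without vehicle mouse 2. With only the cells that HTODemux called singlets, which left 2 treated mice, 104 genes passed, 77 of them among the 271. Of the 44 genes described below that passed in the fit of 3 against 4 mice, 23 also passed with singlets only and 21 did not. With treated mouse 4 added, 261 of the 271 genes were tested and 246 of them passed in the same direction.

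Il1rn, the secreted antagonist of the interleukin-1 receptor, had the largest rise among the better measured genes. It stood at 50.9, 108 and 79.1 CPM in treated mice 1 to 3, against 15.8, 13.004, 9.65 and 8.08 CPM in vehicle mice, a log2 fold change of 2.88 ± 0.29 (SE, edgeR adjusted p = 1.2e-05). The 3 mice lay above all vehicle mice, but treated mouse 4, outside the fit, had 9.73 CPM. Thbs1, which encodes the matrix glycoprotein thrombospondin-1, stood at 812, 600 and 870 CPM in treated mice, against 132, 139, 208 and 96.9 CPM in vehicle mice, a log2 fold change of 2.46 ± 0.26. Treated mouse 4 matched its group at 866 CPM, but with HTODemux singlets only Thbs1 had an edgeR adjusted p of 0.261. Over the single cells of each mouse, the median was 5.31, 5.35, 6.61 and 6.32 Thbs1 UMIs per 10000 in treated mice 1 to 4. In vehicle mice 1 to 4 it was 0.332, 0.249, 0.559 and 0. Got1, the cytosolic aspartate aminotransferase, stood at 260, 243 and 350 CPM in treated mice, against 63.4, 66.3, 62.7 and 49.4 CPM in vehicle mice, a log2 fold change of 2.28 ± 0.17 (edgeR adjusted p = 3.6e-07).

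The other large rises spanned unrelated roles. Cyth1, an exchange factor of ARF GTPases, averaged 174 ± 10.7 CPM in treated mice and 51.2 ± 8.03 CPM in vehicle mice. Mxi1, an antagonist of MYC, averaged 91.1 ± 22.7 and 26.2 ± 8.60 CPM in treated and vehicle mice, and Tgm2, a transglutaminase, 104 ± 35.9 and 35.1 ± 13.8 CPM. Srxn1, the antioxidant enzyme sulfiredoxin, averaged 59.3 ± 15.1 CPM in treated mice and 20.2 ± 2.15 CPM in vehicle mice. Uhrf1, a factor of maintenance DNA methylation, Sipa1l1, a Rap GTPase activator, and Atr, a kinase of the DNA damage checkpoint, rose by 1.82, 1.63 and 2.54 on the log2 scale. With HTODemux singlets only, Tgm2, Srxn1, Uhrf1 and Sipa1l1 did not pass, Uhrf1 with a log2 fold change of 0.18. Some of these calls were lost when a mouse was left out, which also left fewer mice in the fit. Atr reached 160 CPM in treated mouse 2 alone, stood at 14.6 CPM in treated mouse 4, and had an edgeR adjusted p of 0.0516 without vehicle mouse 1. Uhrf1 had an adjusted p of 0.0724 without treated mouse 2, and Sipa1l1 of 0.0805 without treated mouse 1 and 0.0561 without treated mouse 3. The log2 fold changes in those fits were 2.48 for Atr, 1.30 for Uhrf1 and 1.26 and 1.63 for Sipa1l1.

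**Figure D3:**
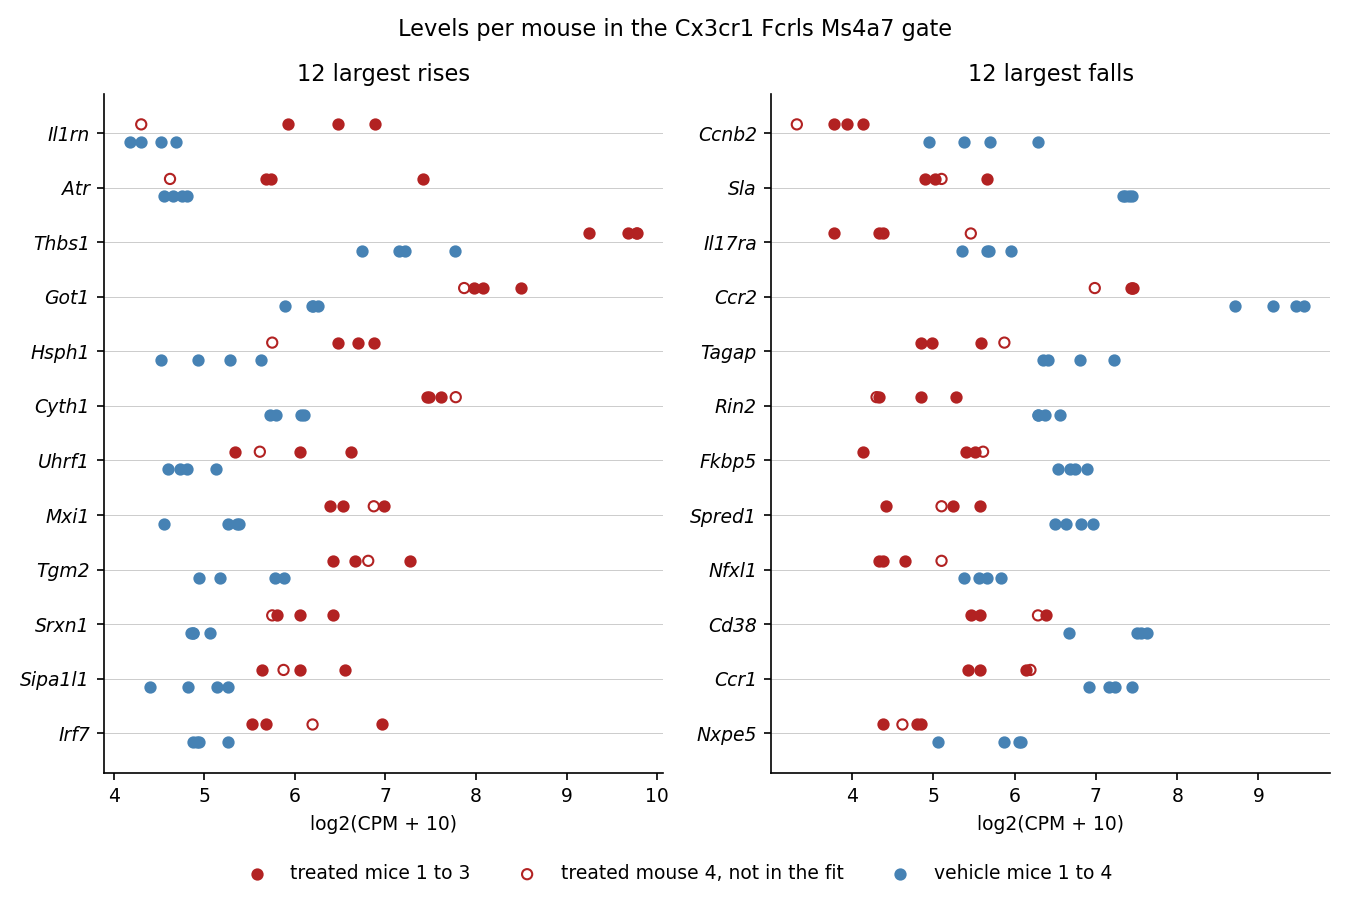
Levels per mouse in the Cx3cr1 gate, as log2(CPM + 10), for the 12 largest rises and 12 largest falls. Filled red points are treated mice 1 to 3, open red points treated mouse 4 and blue points vehicle mice. For Il1rn, Atr and Il17ra the open point lies among the blue ones.

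Among the falls, Ccr2, the receptor that draws monocytes out of the bone marrow and into tissue, was the most abundant of the 12 largest. It stood at 165, 164 and 162 CPM in treated mice 1 to 3 and at 117 CPM in treated mouse 4, against 747, 697, 571 and 407 CPM in vehicle mice. The treated mice lay close together and below every vehicle mouse, with a log2 fold change of -1.82 ± 0.21 (SE, edgeR adjusted p = 0.00049). Over the single cells of each mouse the median was 0.988, 0.671, 0.185 and 0 per 10000 UMIs in treated mice 1 to 4. In vehicle mice 1 to 4 it was 5.75, 6.18, 3.75 and 1.65. Sla, a Src-like adaptor that dampens receptor signalling, stood at 40.7, 19.8 and 22.6 CPM in treated mice, against 164, 155, 160 and 152 CPM in vehicle mice (log2 fold change -2.45 ± 0.23, edgeR adjusted p = 3.8e-06). Fkbp5, a co-chaperone induced by glucocorticoids, averaged 25.2 ± 15.4 CPM in treated mice and 95.5 ± 10.9 CPM in vehicle mice. Spred1, an inhibitor of RAS signalling, averaged 25.7 ± 13.4 and 96.8 ± 15.2 CPM in treated and vehicle mice, and Rin2, a regulator of RAB5 and endocytosis, 19.3 ± 9.32 and 73.3 ± 7.46 CPM. Il17ra, the receptor chain for interleukin-17A, averaged 8.25 ± 3.89 CPM in the 3 treated mice and 41.3 ± 8.61 CPM in vehicle mice, but stood at 34.1 CPM in treated mouse 4.

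Of the 12 largest falls, 5 lost their call when single mice were left out. Each such fit had fewer mice, and the log2 fold changes stayed negative in all of them. Ccnb2, the mitotic cyclin B2, averaged 5.60 ± 1.94 CPM in treated mice and 40.7 ± 20.3 CPM in vehicle mice, and its edgeR adjusted p was 0.131, 0.233 and 0.15 without treated mouse 1, 2 or 3 and 0.0666 without vehicle mouse 1. Cd38, which degrades NAD, averaged 48.6 ± 21.9 CPM in treated mice and 157 ± 44.4 CPM in vehicle mice, with an edgeR adjusted p of up to 0.216 when a mouse was left out. Nxpe5 lost its call without any of 6 mice, with 15.8 ± 4.38 CPM in treated mice and 46.6 ± 16.03 CPM in vehicle mice. Nfxl1 had an edgeR adjusted p of 0.0581 without treated mouse 2, and Tagap, a GTPase activator of leukocytes, of 0.0937 without the same mouse and 0.0542 without treated mouse 3. With HTODemux singlets only, Ccnb2, Cd38, Nxpe5 and Nfxl1 did not pass and Tagap did.

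Of the genes known to respond to CREB and its CRTC coactivators, 1 of 14 tested rose and 0 fell. Beside this, 1.96% of all genes tested rose and 1.78% fell. The list's median log2 fold change was -0.02. Over the settings tried 1 or 2 rose and 0 to 3 fell. The riser was Crem, which encodes a CREB-family modulator. It stood at 73.8, 73.8 and 75.4 CPM in treated mice 1 to 3 and 175 CPM in treated mouse 4, against 6.79, 11.7, 8.27 and 15.3 CPM in vehicle mice. That is a log2 fold change of 2.86 ± 0.27 (SE, edgeR adjusted p = 3.8e-06), with no overlap of the groups. Other members of the list did not pass. Nr4a1 averaged 95.3 ± 34.3 CPM in treated mice and 109 ± 25.3 CPM in vehicle mice (edgeR adjusted p = 0.836). Nr4a2, a related nuclear receptor, averaged 84.7 ± 16.7 CPM in treated mice and 40.3 ± 16.4 CPM in vehicle mice (edgeR adjusted p = 0.118). Il10 had 20.4, 32.4 and 22.6 CPM in treated mice, against 80.4, 67.6, 31.0 and 53.0 CPM in vehicle mice, and did not pass (edgeR adjusted p = 0.151). It passed as lower with no low-count filter (edgeR adjusted p = 0.00301) and without vehicle mouse 3 (edgeR adjusted p = 0.0207). Without that filter many adjusted p-values shrank at similar fold changes, so a pass there weighs little. For Thbs1 the edgeR adjusted p went from 0.0018 to 1.5e-47 at log2 fold changes of 2.46 and 2.38. The kinase genes themselves did not pass either. Sik1 averaged 101 ± 19.2 CPM in treated mice and 102 ± 34.2 CPM in vehicle mice, Sik2 16.4 ± 8.74 and 10.6 ± 5.39 CPM, and Sik3 34.6 ± 11.3 and 19.9 ± 3.55 CPM. The full palindromic CREB motif TGACGTCA, searched on both strands of the 300 bases around each start site, was in 0 of the 33 promoters found for the 44 named genes that passed, and in 1.79% of 32851 promoters. At so low a share, a count of 0 in 33 promoters cannot tell these genes from the rest.

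Genes of the type I interferon response gave rises and no falls. Of 13 tested, 6 rose and 0 fell, beside 1.96% of all genes tested that rose, and the median log2 fold change was 1.04. Higher in all 3 treated mice than in all 4 vehicle mice were 8 of the 13, beside 5.87% of all genes tested. Trim25, a ubiquitin ligase of RNA sensing, stood at 168, 139 and 185 CPM in treated mice 1 to 3 and 200 CPM in treated mouse 4, against 58.9, 83.9, 73.1 and 43.1 CPM in vehicle mice. Its log2 fold change was 1.37 ± 0.21 (SE, edgeR adjusted p = 0.00136). Bst2, which tethers budding virions, averaged 353 ± 46.6 CPM in treated mice and 237 ± 25.6 CPM in vehicle mice, and Rtp4, an interferon-induced Golgi chaperone, 73.3 ± 13.8 and 37.1 ± 6.21 CPM. Oasl1, a 2'-5'-oligoadenylate synthetase-like protein, averaged 40.1 ± 8.95 CPM in treated mice and 11.9 ± 7.65 CPM in vehicle mice. Irf7, the transcription factor that amplifies interferon genes, stood at 115, 36.0 and 41.4 CPM in treated mice, against 19.2, 20.2, 28.3 and 20.6 CPM in vehicle mice. The count changed when single mice were left out, which also left fewer mice in the fit. It was 2 of 14 genes without treated mouse 1, and 3 genes without treated mouse 3 or without vehicle mouse 1. Over all settings tried 2 to 10 passed and 0 fell. The edgeR adjusted p without treated mouse 1 was 0.202 for Irf7, 0.147 for Oasl1 and 0.084 for Rtp4. With HTODemux singlets only, Trim25 passed, whereas Bst2, Rtp4, Oasl1 and Irf7 did not.

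Promoters of these risers are shown because the genes moved together and 2 of them hold a core of the interferon-stimulated response element. The core searched was a pair of GAAA units with 2 free bases between them, on both strands and with overlapping matches counted, and the windows are from RefSeq on GRCm38.p6. A promoter was found for 5 of the 6 risers, and Bst2 and Stat2 held the core, as did 3.44% of 32851 promoters. The genes come from an interferon list and the core was picked for it, so this count is no test of the rise. Capitals mark the matches. The Bst2 stretch lies at chr8:71537547-71537642 on the minus strand, with overlapping matches that begin 130 and 124 bases before the start site. The Stat2 stretch lies at chr10:128270248-128270325 on the plus strand, with a match on the opposite strand 222 bases before the start site.
Bst2: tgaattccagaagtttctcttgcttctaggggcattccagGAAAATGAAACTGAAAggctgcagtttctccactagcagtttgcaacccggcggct
Stat2: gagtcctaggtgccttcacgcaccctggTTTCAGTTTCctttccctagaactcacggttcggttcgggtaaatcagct

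Heat shock genes likewise gave rises and no falls. Of 11 tested, 6 rose and 0 fell, beside 1.96% of all genes tested that rose, and the median log2 fold change was 0.96. In the mice of the fit 9 of the 11 were higher without overlap, beside 5.87% of all genes tested. Hspe1, the mitochondrial co-chaperonin, stood at 326, 475 and 377 CPM in treated mice 1 to 3 and 321 CPM in treated mouse 4, against 189, 167, 232 and 245 CPM in vehicle mice. All 4 treated values lay above all vehicle values, with a log2 fold change of 0.99 ± 0.15 (SE, edgeR adjusted p = 0.000979). Hsph1, an HSP110 exchange factor, averaged 93.2 ± 13.9 CPM in treated mice and 25.5 ± 11.4 CPM in vehicle mice, with 43.8 CPM in treated mouse 4. Hsp90aa1 and Hsp90ab1, the inducible and constitutive HSP90 chaperones, averaged 744 ± 162 and 1663 ± 155 CPM in treated mice, against 458 ± 61.0 and 1170 ± 178 CPM in vehicle mice. Hspa8 and Hspd1 were the other risers. The HSP70 genes Hspa1a and Hspa1b, near-identical copies whose counts are uncertain, averaged 200 and 204 CPM in treated mice and 78.4 and 26.7 CPM in vehicle mice and did not pass (edgeR adjusted p = 0.148 and 0.134). Hspa5, the chaperone of the endoplasmic reticulum, averaged 1310 CPM in treated mice and 1339 CPM in vehicle mice. Over the settings tried 3 to 9 genes of the list passed, with 3 of 11 without treated mouse 3, where Hsp90ab1 had an edgeR adjusted p of 0.0559.

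Hspe1 and Hspd1, whose proteins form the mitochondrial chaperonin, lie head to head and share 1 promoter, so their windows are not independent. The shared stretch is printed because it holds the heat shock element searched for, 3 alternating units of GAA and TTC with 2 free bases between neighbours, beginning with either unit, on both strands and with overlapping matches counted. It lies at chr1:55088019-55088116 on the plus strand of GRCm38.p6, per RefSeq, and its matches, in capitals, begin 89 and 84 bases before the Hspe1 start site. A promoter was found for 3 of the 6 risers, and all 3 held the element (in Hsph1 after the start site), beside 0.603% of 32851 promoters. The genes come from a heat shock list and the element was picked for it, so this count is no test of the rise.
Hspe1 and Hspd1: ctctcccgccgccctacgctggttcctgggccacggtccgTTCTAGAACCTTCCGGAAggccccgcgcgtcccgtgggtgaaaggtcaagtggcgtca

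Among chemokine receptors there were falls and no rises. Of 6 tested, 3 fell and 0 rose, the median log2 fold change was -0.91, and Ccr2 and Ccr1 were among those that fell. Genes that fell made up 1.78% of all genes tested, and genes lower in all 3 treated than in all 4 vehicle mice 11.5%. Ccr1, a receptor for CCL3 and CCL5, stood at 33.1, 37.8 and 60.3 CPM in treated mice 1 to 3 and 63.3 CPM in treated mouse 4, against 140, 133, 110 and 164 CPM in vehicle mice. Its log2 fold change was -1.63 ± 0.22 (SE, edgeR adjusted p = 0.00043). Over every setting tried 3 or 4 receptors fell and 0 or 1 rose. Among chemokine ligands 1 of 15 fell, Ccl8, with 2.55, 1.80 and 0 CPM in treated mice 1 to 3, against 19.2, 47.5, 34.5 and 39.5 CPM in vehicle mice. Treated mouse 4 had 68.1 CPM of it, and with that mouse added the edgeR adjusted p was 0.491. Of the 15 ligands 5 were lower in all 3 treated than in all 4 vehicle mice, and over the settings tried 0 to 5 fell and 0 or 1 rose. Ccl12 stood at 15.3, 14.4 and 11.3 CPM in treated mice and 4.87 CPM in treated mouse 4, against 211, 116, 79.96 and 313 CPM in vehicle mice. Its groups did not overlap, yet it did not pass in the 3 against 4 fit (edgeR adjusted p = 0.105), whereas its edgeR adjusted p was 0.0369 with treated mouse 4 added, 0.00602 without vehicle mouse 3 and 0.0252 without vehicle mouse 4.

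Genes of mRNA decay and of the glucocorticoid response gave 3 falls and 0 rises among 7 tested, beside 1.78% of all genes tested that fell, with a median of -0.35. Without overlap 4 of the 7 were lower, beside 11.5% of all genes, and 2 to 4 fell over the settings tried. They were Fkbp5, described above, and Zfp36l1 and Zfp36l2, RNA-binding proteins that shorten the life of AU-rich messengers. Zfp36l2 stood at 326, 238 and 343 CPM in treated mice 1 to 3 and 258 CPM in treated mouse 4, against 573, 564, 607 and 500 CPM in vehicle mice, without overlap. Zfp36l1 averaged 262 ± 92.2 CPM in treated mice and 539 ± 33.3 CPM in vehicle mice, and its edgeR adjusted p was 0.072 without treated mouse 3, 0.0527, 0.0597 and 0.0567 without vehicle mouse 1, 2 or 3. Tsc22d3, another classical glucocorticoid target, averaged 156 CPM in treated mice and 166 CPM in vehicle mice (edgeR adjusted p = 0.996).

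Lists of macrophage function gave 1 or 2 calls each, whereas of all genes tested 1.78% fell and 1.96% rose. Of 7 complement genes tested beside the gating genes, 2 fell and 0 rose, among them C3ar1, a receptor for the C3a fragment, at 138 ± 16.3 CPM in treated mice and 212 ± 22.8 CPM in vehicle mice. Both calls ended when single mice were left out, that of C3ar1 with an edgeR adjusted p of 0.0908 without treated mouse 1. P2ry12, the purine receptor of microglia, was the single fall among 14 genes of brain macrophages, at 8.16 ± 5.95 CPM in treated mice and 32.2 ± 7.996 CPM in vehicle mice. Its adjusted p was 0.0981 without treated mouse 1, and treated mouse 4 stood at 29.2 CPM. Of these 14 genes 12 had a negative log2 fold change, 5 were lower without overlap, beside 11.5% of all genes, and 0 to 5 fell over the settings tried. Ctsc, a lysosomal protease, fell among 9 cathepsins, at 682 ± 67.0 CPM in treated mice and 1139 ± 207 CPM in vehicle mice. Lipa, the acid lipase, fell among 11 lipid genes, at 205 ± 30.3 and 314 ± 40.7 CPM in treated and vehicle mice, but had an adjusted p of 0.165 without treated mouse 2. Fcgrt, the neonatal Fc receptor, fell among 6 Fc receptor genes, at 113 ± 9.86 CPM in treated mice and 198 ± 19.6 CPM in vehicle mice. Tgfbr2 fell among 7 genes of TGF-beta signalling, at 51.6 ± 16.1 and 115 ± 22.3 CPM in treated and vehicle mice, with an adjusted p of 0.0635 without treated mouse 3. Nlrp3, the inflammasome sensor, fell among 7 inflammatory genes of which Il1rn rose. It averaged 47.1 ± 8.24 CPM in treated mice and 106 ± 23.0 CPM in vehicle mice, with an adjusted p of 0.063 without treated mouse 2. With HTODemux singlets only, Tgfbr2 still passed, and C3ar1, P2ry12, Ctsc, Lipa, Fcgrt and Nlrp3 did not.

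**Figure D4:**
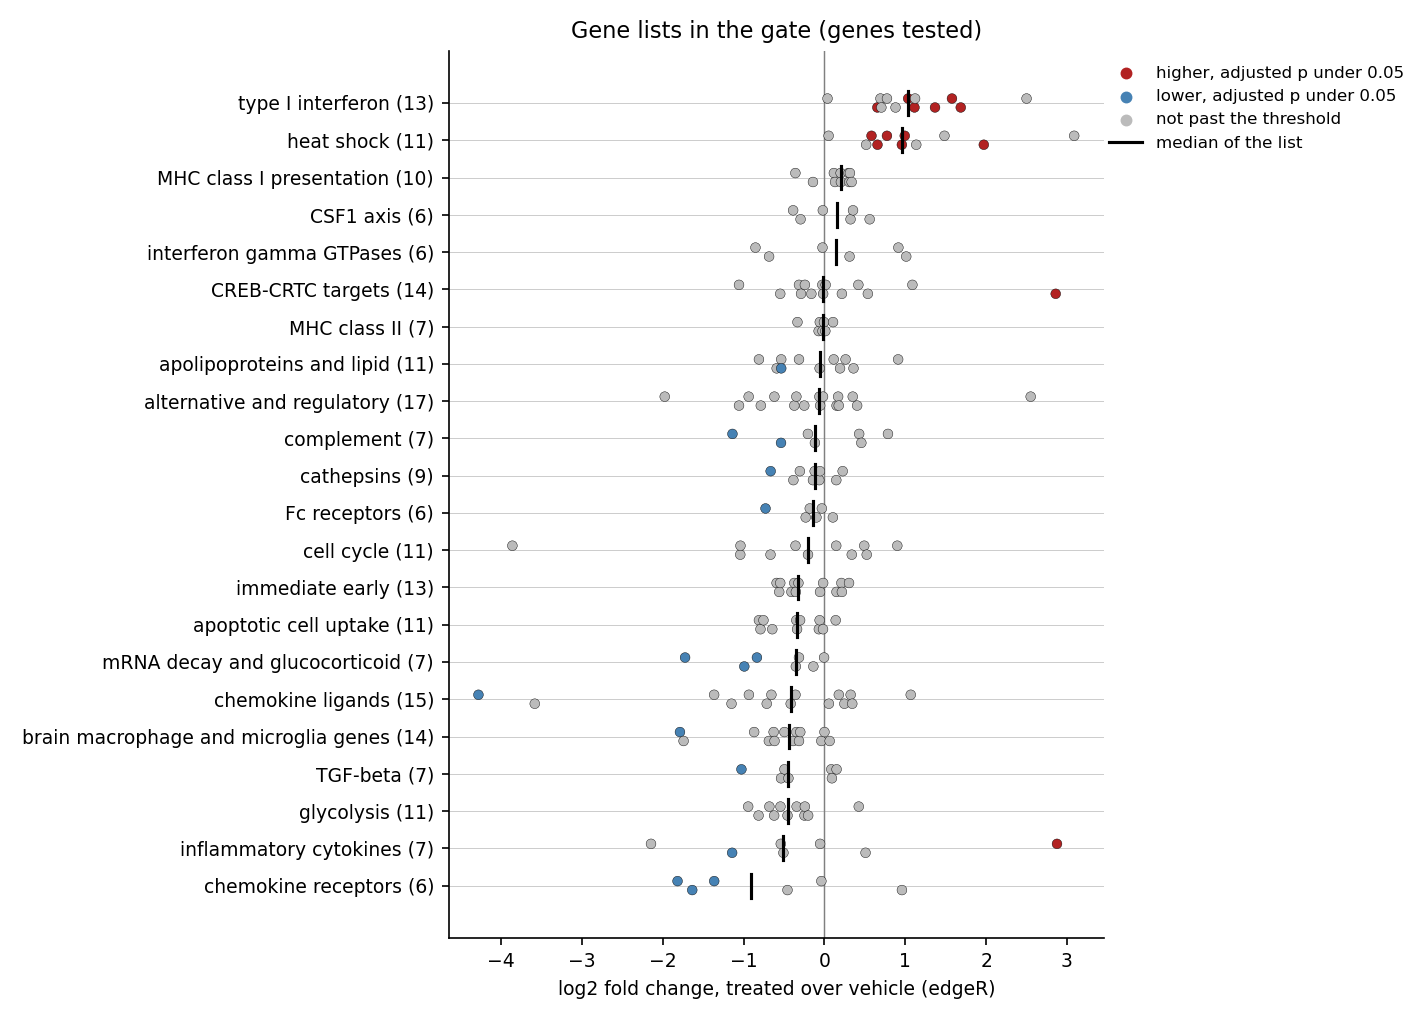
Log2 fold change of treated over vehicle mice in the Cx3cr1 gate for the tested genes of 22 lists, with the number tested in brackets. Red and blue points passed an edgeR adjusted p of 0.05 as higher or lower in treated mice, black strokes are list medians, and the medians ran from -0.91 for chemokine receptors to 1.04 for type I interferon genes.

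In the remaining lists 0 genes passed in either direction. MHC class II had 7 genes tested, a median of -0.02 and a range of -0.33 to 0.11. H2-Aa averaged 3016 ± 1200 CPM in treated mice and 3235 ± 582 CPM in vehicle mice, a spread between mice wider than the difference. The 10 tested genes of MHC class I presentation had a median of 0.20, the 6 interferon gamma GTPases of 0.14 and the 6 genes of the CSF1 axis of 0.15. Among apoptotic cell uptake genes the median over 11 was -0.34, and among 13 immediate early genes -0.32. Among 11 glycolysis genes the median was -0.46, 10 had a negative log2 fold change, and 7 were lower in all 3 treated than in all 4 vehicle mice, beside 11.5% of all genes tested. Over the settings tried 0 to 5 glycolysis genes, 0 to 5 immediate early genes and 0 to 5 alternative and regulatory genes fell and 0 rose, the 5 in each case with no low-count filter. With treated mouse 4 added 3 glycolysis genes, 3 alternative and regulatory genes and 1 immediate early gene fell. The 17 alternative and regulatory genes had a median of -0.06. The 11 cell cycle genes had a median of -0.20, with Mki67 at 86.4 CPM in treated mice and 161 CPM in vehicle mice (edgeR adjusted p = 0.746). Csf1r, at the CPM given above, did not pass (edgeR adjusted p = 0.121), but was lower without treated mouse 1 (edgeR adjusted p = 0.0389). It also passed with no low-count filter (edgeR adjusted p = 0.019), a setting whose p-values weigh little, as said for Il10. Ear2 did not pass, with 129 ± 46.5 CPM in treated mice and 101 ± 44.4 CPM in vehicle mice (edgeR adjusted p = 0.716) and 0 CPM in treated mouse 4.

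Marker genes outside these lists gave 3 calls, named here after their values were seen apart from Ccr2. Beside them, 1.96% of all genes tested rose and 1.78% fell. In the macrophage list, with 8 genes tested, Lyz2 was higher, at 7633 ± 724 CPM in treated mice and 5748 ± 646 CPM in vehicle mice (log2 fold change 0.49, edgeR adjusted p = 0.00874). In the classical monocyte list, with 6 genes tested, Ly6c2 was higher while Ccr2 was lower. Ly6c2, a surface protein of inflammatory monocytes with a near-identical neighbour, stood at 120, 63.0 and 37.7 CPM in treated mice 1 to 3 and 19.5 CPM in treated mouse 4, against 1.13, 7.80, 4.83 and 12.6 CPM in vehicle mice (edgeR adjusted p = 0.00289). Summed over its 7 genes the list held 497 to 822 CPM in treated mice and 787 to 1552 CPM in vehicle mice. The 4 genes of the cDC2 list, dendritic cells that present to helper T cells, summed to 19.5 to 40.7 CPM in treated mice and 64.6 to 152 CPM in vehicle mice, and their part in the results was not tested. The gating genes are given as a description with no test, since the rule selects on them. Cx3cr1 averaged 122 ± 46.1 CPM in treated mice and 246 ± 41.3 CPM in vehicle mice, and Ms4a7 361 ± 75.9 and 251 ± 26.4 CPM. Fcrls averaged 201 ± 66.3 CPM in treated mice and 176 ± 46.8 CPM in vehicle mice.

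Many of the same genes differed in the other gates of these mice. In the other 3 gates together, with more cells per mouse, 1618 of 9523 genes passed, 17.0% of those tested, with 722 higher (7.58%) and 896 lower (9.41%) in treated mice. The same mice give both comparisons. The mix of the other 3 gates differed between treated and vehicle mice, by the shares given above, and its part in these calls was not tested. Of the 271 genes called in the Cx3cr1 gate, 192 were called in the same direction in the other gates, which is 70.8% of the first list and 11.9% of the second, and 0 were called in opposite directions. Crem had a log2 fold change of 2.86 in the gate and 3.02 in the other gates, Got1 of 2.28 and 2.12, and Ccr2 of -1.82 and -1.04. In the interferon list 14 of 15 tested genes rose in the other gates. Heat shock genes gave 1 rise among 11 there, Hspe1 with a log2 fold change of 1.05. Counts of list members called in the gate were not tested against those in the other gates. Thbs1 did not pass there (log2 fold change 0.45, edgeR adjusted p = 0.68), but the test of the difference between gates gave an adjusted p of 0.558.

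The difference of the treatment effect between the Cx3cr1 gate and the other 3 gates was tested with an arm by gate term that kept the mouse as a block. Of 9430 genes, 29 passed, 0.308%, and 23 of them (0.244%) had the more positive treated over vehicle difference in the gate and 6 (0.0636%) the more negative. The number was 19 without treated mouse 1, 11 without treated mouse 2, 19 without treated mouse 3 and 102 without vehicle mouse 4. Axl, a receptor tyrosine kinase for the uptake of dying cells, gave the smallest p. In the gate it stood at 201, 155 and 166 CPM in treated mice 1 to 3, against 170, 137, 165 and 193 CPM in vehicle mice, so the groups overlapped. In the other gates it averaged 45.7 ± 4.85 CPM in treated mice and 114 ± 9.30 CPM in vehicle mice. The arm by gate term was 1.49 ± 0.17 (log2, SE, edgeR adjusted p = 0.000102). Lpcat2, an enzyme of platelet-activating factor synthesis, averaged 71.3 and 59.1 CPM in treated and vehicle mice of the gate, against 20.7 and 51.0 CPM in treated and vehicle mice of the other gates (difference 1.66 ± 0.26). Dapk1, a kinase tied to cell death, averaged 53.9 and 34.9 CPM in treated and vehicle mice of the gate, against 61.1 and 121 CPM in those of the other gates (difference 1.68 ± 0.27). Tmem176b, an ion channel of myeloid cells, fell in both, to 310 CPM in treated mice of the gate, against 596 CPM in vehicle mice, and to 119 CPM in treated mice of the other gates, against 417 CPM in vehicle mice (difference 0.97 ± 0.15).

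**Figure D5:**
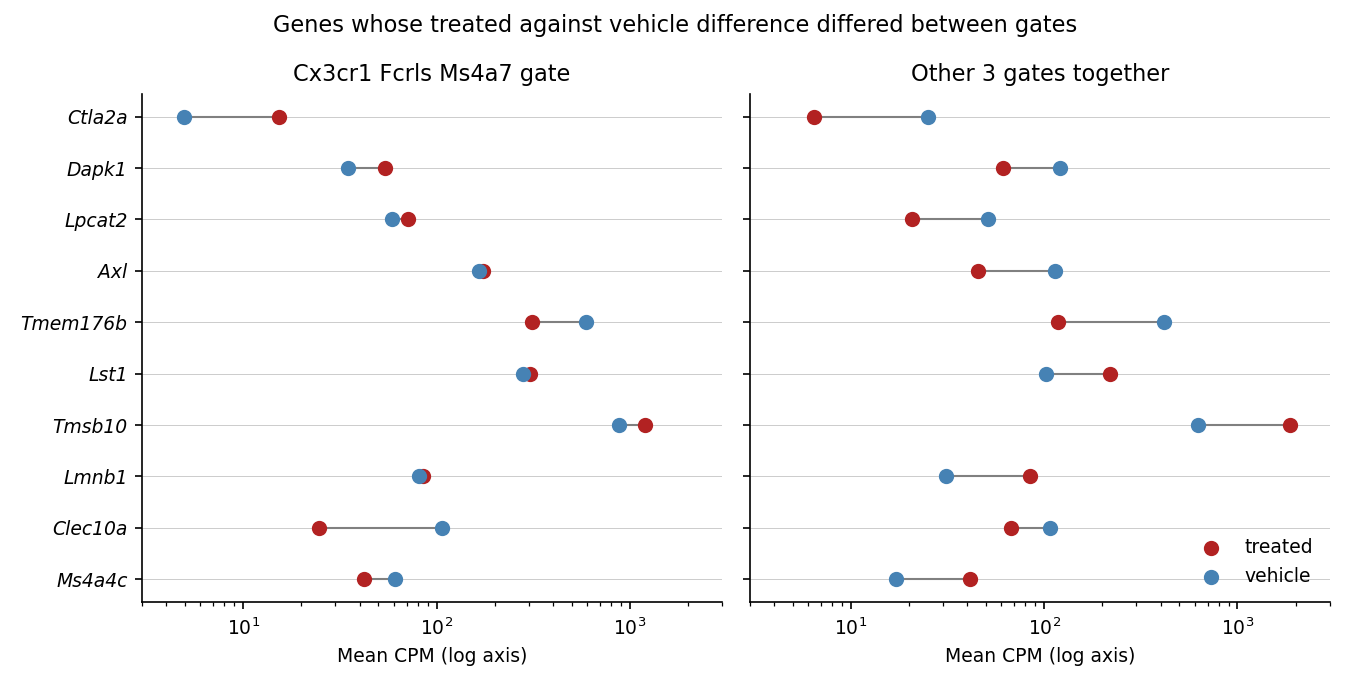
Mean CPM on a log axis in treated (red) and vehicle (blue) mice for 10 genes past the threshold in the arm by gate term, 5 of either sign, in the Cx3cr1 gate on the left and in the other 3 gates together on the right. Axl stays near 170 CPM on the left (174 and 166 CPM), whereas on the right it is at 45.7 CPM in treated and 114 CPM in vehicle mice.

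The other 5 of the 10 genes had a negative term. Ms4a4c, a tetraspan protein, averaged 42.1 and 60.8 CPM in treated and vehicle mice of the gate, against 41.1 and 17.1 CPM in treated and vehicle mice of the other gates (difference -1.67 ± 0.27, edgeR adjusted p = 0.00277). Tmsb10, an actin-binding thymosin, averaged 1203 and 881 CPM in treated and vehicle mice of the gate, against 1865 and 626 CPM in those of the other gates (difference -1.04 ± 0.15). Lmnb1, which encodes lamin B1, averaged 85.6 and 80.8 CPM in treated and vehicle mice of the gate, against 84.5 and 31.1 CPM in those of the other gates (difference -1.27 ± 0.24). Lst1, a leukocyte-specific transcript, had a difference of -0.91 ± 0.18. Clec10a, a lectin of dendritic cells and macrophages, averaged 24.6 CPM in treated mice of the gate and 107 CPM in vehicle mice of the gate, against 67.7 and 107 CPM in treated and vehicle mice of the other gates (difference -1.31 ± 0.26). When any 1 of the 3 treated mice was left out, Clec10a, Lst1 and Lmnb1 no longer passed, while Axl, Ms4a4c, Tmsb10, Tmem176b and Lpcat2 passed whichever mouse was left out. Ctla2a, at 15.3 and 4.91 CPM in treated and vehicle mice of the gate, did not pass without treated mouse 2, nor did Dapk1. With HTODemux singlets only, Lpcat2 and Ctla2a were the 2 of these 10 genes that passed, and Axl had an edgeR adjusted p of 0.0705.

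The same rule applied to the spleen and blood library found few such cells. It gave 13 cells in spleen, 6, 3 and 4 in vehicle mice 1 to 3, and 0 in the 2345 kept spleen cells of treated mice, where a count of 0 allows a share of up to 0.128%. In blood it gave 0 of 2578 cells, which allows up to 0.116%. The 13 cells had a median of 3654 UMIs and a median gate sum of 2 UMIs. Their number is too small for a comparison of levels with ascites. None of the gate barcodes was shared between the 2 libraries, of which 52 barcodes occurred in both.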

How the data were processed

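The deposited matrices hold raw UMI counts per gene and hashtag for each barcode, which the authors made with Cell Ranger 6.1.1 on mm10, per the submitters' processing notes. Libraries used the 10x Genomics 3' v3.1 chemistry, per the labels' protocols, and how reads of near-identical genes were counted is not given in the sources used here. A deposited list of hashtags gave the group, mouse and tissue. The limits were 200 genes and 500 UMIs from below and 10% mitochondrial UMIs from above, which 11112 of 13688 ascites barcodes met. The top hashtag then had to hold at least 80% of at least 20 hashtag UMIs, which left 665 to 1095 cells and 5941297 to 10808239 UMIs per ascites mouse. Intervals and limits cover counting error only.

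Counts were summed per mouse for mice with at least 20 gate cells (3 treated, 4 vehicle) and tested in R 4.3.3 with edgeR 4.0.16 (robust quasi-likelihood F test, TMM, filterByExpr) and Benjamini-Hochberg adjustment over all genes tested. Where an alternative on cells left fewer than 3 mice of a group with 20 gate cells, the minimum was 10 cells. The gating genes were left out of counts. Levels against the other gates used log2 ratios with 10 CPM added and mice summed alike. On counts simulated for the treated against vehicle fit over 7085 genes, 51.6% of 2-fold and 90.8% of 4-fold changes were recovered, and 6.2% of calls were false. For the arm by gate term over 7248 genes these were 26%, 79% and 3.7%.

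Genes named are the 12 largest rises and 12 largest falls that passed, had an average logCPM of 5 or more and showed no overlap of the groups, up to 4 called members per list by smallest p, a fixed set (Crem, Sik1, Sik2, Sik3, Nr4a1, Il10, Csf1r, Ear2 and Ccl12), the 20 leading genes of the gate and, for either sign of the arm by gate term, the 5 genes of smallest p. Other genes named, such as Stat2, Hspa8 and Hspd1, and the interferon and heat shock motifs were chosen after their values were seen. The members and lists were chosen with earlier results of these data known. A few genes that the rule names are not reported here. Alternatives were stricter hashtag and mitochondrial limits, a thinned gate, a gate with a margin, leaving out the cells with the most UMIs, other minimum cell numbers, no low-count filter, DESeq2 1.42.0 size factors and Wald test, a replicate block and leaving out each mouse. HTODemux (Seurat 5.3.0) singlets were added after seeing the data. Whether mice of a group were housed or processed separately before labelling is not given, so p-values measure the spread between these mice.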

Additional observations from a re-analysis of the deposited data

Results flagged for a closer look

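In 6 of 60 sets of 4 vehicle mice that were examined, 1 mouse stood apart from the other 3 by Dixon's criterion, which chance gives in about 1 of 20 sets. Vehicle mouse 2 was the high one for Srxn1 (23.4 CPM), C3ar1 (246 CPM) and Lipa (375 CPM). Vehicle mouse 4 was the high one for Hsp90ab1 (1435 CPM) and Ear2 (167 CPM), and vehicle mouse 3 for Irf7 (28.3 CPM). The treated group of 3 mice was too small for this criterion.

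For 10 genes the treated over vehicle difference in the Cx3cr1 gate differed from that in the other 3 gates pooled, by the arm by gate term of edgeR. The mix of the pooled gates differed between the groups as well. The term was positive for Axl (1.49), Tmem176b (0.97), Lpcat2 (1.66), Dapk1 (1.68) and Ctla2a (3.78, a gene of few UMIs), and negative for Tmsb10 (-1.04), Ms4a4c (-1.67), Lmnb1 (-1.27), Lst1 (-0.91) and Clec10a (-1.31), all on the log2 scale.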

How the results depend on the processing

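The 271 genes called between treated and vehicle mice became 104 with HTODemux singlets only and 528 with no low-count filter, and 151 to 342 when single mice were left out. With no low-count filter the adjusted p-values of many named genes were far smaller at similar fold changes. For the arm by gate term, 29 genes became 9 with HTODemux singlets only, 172 with no low-count filter, and 11 to 102 when single mice were left out. With at least 10 cells per mouse, which adds treated mouse 4, they became 67. They became 96 with the stricter hashtag rule, 44 with the thinned gate, 65 with the margin and 79 without the 5% of cells with the most UMIs. In these settings fewer than 3 treated mice kept 20 cells, so the minimum fell to 10 and treated mouse 4 entered as well. The part of that mouse in these counts was not tested. Treated minus vehicle medians of UMIs per cell were -3514.5 with the stricter hashtag rule, -837.9 with the thinned gate and -1146.9 with the margin. These used 4 mice of each group, with treated mouse 4 among them, and none passed. The differences were -5137.1 with HTODemux singlets only and -5389.8 to -2986.5 when single mice were left out. There 2 mice against 4 or 3 against 3 cannot reach 0.05. The share difference, in percentage points, was -9.79 of C1q-positive cells and, of kept cells, -5.75 to -3.73 when single mice were left out. C1q-positive cells with any UMI of Ear2 or Ccl12, another set of cells, differed by -9.30 percentage points of kept cells. The level of Ccl12 was itself lower in treated mice of the gate, without overlap, so this last share moves with that level. The causes were not tested. At least 50 cells per mouse could not be fitted, since 0 treated mice had them.

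Of the 44 named genes that passed, 0 changed direction in 18 alternatives and 17 passed in every alternative that tested them, among them Il1rn, Got1, Cyth1, Crem, Sla, Ccr1, Ccr2 and Hspe1. Genes near 0 changed sign without passing. Sik1 was -0.058 with the stricter hashtag rule, -0.046 with the thinned gate, -0.023 with the margin, -0.031 without the 5% of cells with the most UMIs, -0.037 with at least 10 cells, -0.056 with no low-count filter and -0.20 with the replicate block, and -0.21 to 0.21 when single mice were left out. Nr4a1 was 0.00084 with the thinned gate, 0.15 with HTODemux singlets only and -0.41 to 0.19 when single mice were left out, and Ear2 was -0.42 without the 5% of cells with the most UMIs. Equal mouse numbers mark different animals. With the number as a replicate block 273 genes passed, 211 of them among the 271, and Il10 (-1.18, edgeR adjusted p = 0.0319) and Ccl12 (-3.21, edgeR adjusted p = 8.2e-07) passed as lower. Deviations from the group means of equal numbers correlated at 0.03, -0.15 and 0.02, and 1 of 6 samples correlated best with its own number, so no pairing is read from them. With 20 to 36 cells per treated mouse of the fit, a change of 2-fold is often missed.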
